A study of Mus musculus with 6 samples.

Results

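The 6 transcripts described here are the nuclear-retained long noncoding RNAs Malat1 and Neat1, the erythroid long noncoding RNA Lockd, and the snoRNA-host transcripts Gas5, Snhg1 and Snhg12. They were taken by gene symbol from the 27179 genes counted in each library, and all 6 had a row. RefSeq annotates 2077 of the counted genes as long noncoding RNA, and 647 of these had a count in any library. A filter on low counts left 2823 genes for testing, among them 5 of the 6 transcripts. Snhg12 did not pass it.

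RNA came from purified circulating red cells of BalB/c males that carry 1 copy of a missense allele of Nxf1 (Nxf1+/C587R, 3 mice, called mutant below) and of 3 littermates without it (Nxf1+/+, called wild type). Nxf1 is the receptor that carries messenger RNA out of the nucleus, and the mutants keep 1 wild-type copy of its gene. Each of 3 batches held 1 mouse of either genotype. The purity of the red cells was checked by flow cytometry against platelets, CD45+ cells and nucleated cells before polyadenylated RNA was sequenced.

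Total counts per library ran from 14636739 to 15790336, and 88.1% to 89.3% of them fell on globin genes, which left 1627997 to 1877571 counts for all other genes. All 6 red cell markers examined were found in every library, and 1 was called higher. Markers of other cells were found as well. Summed over 7 leukocyte markers, of which 5 were tested and edgeR called 0 and DESeq2 1, TMM-scaled CPM (counts relative to library size, CPM, after scaling by trimmed mean of M values) were 73.7 to 99.7 in mutant red cells and 80.1 to 89.6 in wild-type red cells. Of 3 platelet markers tested 0 were called. The 6 hepatocyte markers had 978 to 2441 counts in each mutant library and 1 to 90 in each wild-type library, and 4 of 6 were called higher. The part of these other cells in the results below was not tested. Wild-type library 1 stood apart. It had 12704 genes with a count, against 10061 to 11095 in the others, and 108 counts of 4 exocrine pancreas markers, against at most 2 elsewhere. It also had 30 counts of Xist, the X-inactivation RNA, against at most 1 in any other library, although all mice were said to be male. Counts of the Y-linked gene Ddx3y in this library (7) lay within the range of the others (5 to 13). Fold changes and ratios of Lockd, Malat1 and Neat1 in which this library was the highest or lowest of the 6 are given with and without it.

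Red cells of mammals lose their nucleus during maturation, and young red cells in the blood, the reticulocytes, keep a remainder of cytoplasmic RNA. Malat1 resides in nuclear speckles and Neat1 is the scaffold of paraspeckles, so both are known as transcripts that stay in the nucleus. snoRNA hosts are different. Their introns are processed into small nucleolar RNAs that guide chemical modification of other RNAs, and their spliced exons reach the cytoplasm, where nonsense-mediated decay is known to remove them. Lockd is transcribed downstream of Cdkn1b, the gene for the Cdk inhibitor p27, in mouse erythroid precursors. The region of its promoter is known there as an enhancer of Cdkn1b.

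Selection of polyadenylated RNA bears on which forms of these transcripts can be counted, so their 3′ ends are shown first. Mature Malat1 and the long form of Neat1 carry no poly(A) tail. Both end in an A-rich stretch encoded in the genome, which pairs with T-rich stretches upstream into a triple helix. The matching stretches below are from GENCODE M21 transcripts on GRCm38, minus strand, written 5′ to 3′ with the T-rich and A-rich stretches in capitals.
Malat1 (chr19:5795982-5796067): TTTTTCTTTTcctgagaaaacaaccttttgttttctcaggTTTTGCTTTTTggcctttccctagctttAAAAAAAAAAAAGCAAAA
Neat1, long form (chr19:5824708-5824797): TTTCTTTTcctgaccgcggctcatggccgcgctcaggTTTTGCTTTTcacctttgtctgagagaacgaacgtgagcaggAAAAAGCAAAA
Among 141767 transcript models searched on the transcribed strand for TTTCTTTT, then TTTTGCTTT, then an A run of at least 5 followed by GCAAAA, each 5 to 80 bases apart, 2 matched, 1 of Malat1 and 1 of Neat1. The A run is 12 bases long in Malat1 and 5 in Neat1. In Malat1 it lies 292 bases before the annotated end, and in the long form of Neat1 the match ends at the annotated end.

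Other annotated ends of the same transcripts carry an ordinary polyadenylation signal, AATAAA or ATTAAA, in some models and not in others. For each transcript 1 GENCODE model that has it was chosen, and its last 60 bases are shown with the signal in capitals. Coordinates are those of the models on GRCm38.
Malat1 (chr19:5795690-5795749, minus): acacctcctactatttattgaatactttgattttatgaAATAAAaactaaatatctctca
Neat1, short form (chr19:5842307-5842366, minus): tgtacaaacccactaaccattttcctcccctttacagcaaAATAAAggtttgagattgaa
Lockd (chr6:134951518-134951577, plus): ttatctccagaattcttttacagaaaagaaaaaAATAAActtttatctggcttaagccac
Gas5 (chr1:161038480-161038539, plus): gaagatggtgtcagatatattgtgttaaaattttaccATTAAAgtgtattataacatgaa
Snhg1 (chr19:8726384-8726443, plus): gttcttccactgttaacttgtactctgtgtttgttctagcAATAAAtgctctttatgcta
Snhg12 (chr4:132310965-132311024, plus): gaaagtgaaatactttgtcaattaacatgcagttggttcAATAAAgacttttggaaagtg
A signal within the last 40 bases was found in 3 of 4 Malat1 models, 1 of 4 Neat1 models, 3 of 5 Lockd models, 17 of 25 Gas5 models, 10 of 18 Snhg1 models and 8 of 10 Snhg12 models. The deposited gene length of Neat1 is 3177 bases, while its longest model has 20771. The counts of Neat1 therefore cover a length close to that of the short form (3004 bases). The deposited lengths of Malat1 and Lockd are 6982 and 607 bases.

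All 6 transcripts had counts in libraries of either genotype, at a low share of total counts, most of which fell on globin genes. In mutant libraries Snhg12 had 1 count, in library 1 only. By mean TMM-scaled CPM among the 2077 long noncoding RNAs, Lockd ranked 5 in both genotypes. In mutant and wild-type libraries Malat1 ranked 7 and 8, Neat1 8 and 6, Gas5 12 and 19, Snhg1 24 and 25, and Snhg12 194 and 134. How much of each came from red cells was not tested. Per kilobase of the deposited gene length, Lockd was the most abundant of the 6 in every library. It averaged 11.8 ± 1.54 TMM-scaled CPM per kilobase in mutant red cells and 19.8 ± 6.49 in wild-type red cells (SD, n = 3 each), without overlap with any other of the 6. Next came Snhg1, at 1.46 ± 0.678 CPM per kilobase in mutant and 1.49 ± 0.620 in wild-type red cells. It overlapped Neat1 in both genotypes (0.759 ± 0.170 in mutant and 1.41 ± 0.527 in wild-type red cells).

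Gas5 (0.638 ± 0.198 CPM per kilobase) overlapped Neat1 in mutant red cells and lay above Malat1 (0.401 ± 0.0115) without overlap. In wild-type red cells Malat1 (0.545 ± 0.148) lay below Neat1 without overlap and overlapped Gas5 (0.420 ± 0.0386). Snhg12 was last in both, with single counts. These levels depend on the lengths used, since Snhg1 was counted over 476 bases and Malat1 over 6982. Gas5 was counted over 2554 bases, while its models run from 346 to 2556 bases. Over a short model its level per kilobase would be higher, so its place in the order is not settled.

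**Figure D1:**
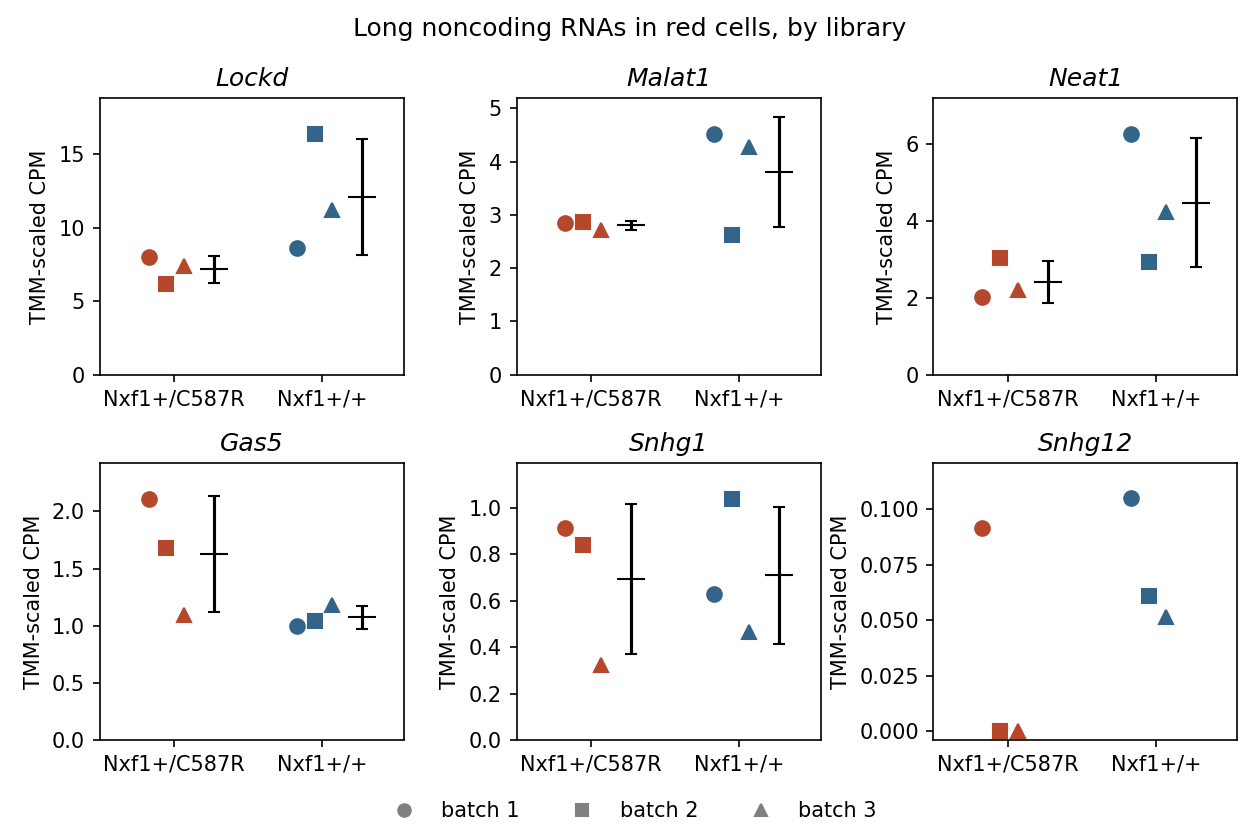
TMM-scaled CPM of the 6 transcripts, with each point 1 library, mutant (Nxf1+/C587R) left and wild type (Nxf1+/+) right, and the batch given by the symbol. Black bars are means with SD (n = 3), not drawn for Snhg12, and the mutants lie below every wild-type library for Lockd only.

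None of the 5 transcripts tested reached the threshold of an adjusted p under 0.05 in the comparison of mutant with wild type (edgeR quasi-likelihood test, Benjamini-Hochberg over all genes tested). At that threshold 7.05% of the 2823 genes were called, 1.06% lower and 5.99% higher. At an unadjusted p under 0.05, 2 of the 5 passed, Lockd and Neat1, against 18.5% of all genes tested. DESeq2 and limma-voom called 0 of the 5. With batch as a term edgeR called 2.13% of genes lower and 6.87% higher, and Lockd and Neat1 were among the lower ones. The median log2 fold change of the 5 transcripts was −0.45, against −0.06 over all genes tested, and 4 of the 5 were negative, against 54.9% of all genes. Of these, Snhg1 turned positive in 5 of 17 alternatives, DESeq2 among them.

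Lockd (Entrez gene 381822, chromosome 6, 134929092 to 134951718, plus strand, mm10) had 87, 73 and 114 counts in mutant red cells and 164, 268 and 217 in wild-type red cells. TMM-scaled CPM were 7.97, 6.14 and 7.36 in mutant red cells, against 8.61, 16.4 and 11.2 in wild-type red cells. Every mutant library was below every wild-type library, a separation that 11.1% of tested genes showed in this direction and 12.3% in the other. The log2 fold change was −0.75 (SE 0.23, 95% interval −1.23 to −0.27, edgeR adjusted p = 0.0588). In bulk RNA, fewer cells that hold a transcript and less of it per cell cannot be told apart.

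With batch as a term Lockd passed the test, at −0.71 (edgeR adjusted p = 0.0177). Within batches 1, 2 and 3 the log2 difference was −0.11, −1.40 and −0.60, so all 3 pairs had the mutant lower and the sizes were unequal. That sign follows from the separation above, whichever libraries are paired. The 2 libraries of a batch showed no shared variation across genes, with r of −0.116, −0.0855 and −0.0439 in their deviations from group means. The value depended on single wild-type libraries. Without wild-type library 1 it was −0.94 (edgeR adjusted p = 0.00865), and without wild-type library 2, which had the most counts, it was −0.45 (adjusted p = 0.352). Without batch 2 it was −0.33 (adjusted p = 0.649) and without batch 1 −0.97 (adjusted p = 0.0281). DESeq2 did not call it (adjusted p = 0.142, or 0.451 once batch was in the model).

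Cdkn1b ends 3566 bases before the start of Lockd and is transcribed from the same strand. Mutant libraries had 29, 32 and 65 counts of Cdkn1b, against 45, 31 and 47 in wild-type libraries. In TMM-scaled CPM this was 3.18 ± 0.879 in mutant and 2.23 ± 0.291 in wild-type red cells (SD, n = 3 each). Cdkn1b was not called (log2 fold change 0.52, SE 0.27, edgeR adjusted p = 0.310), and neither was the other Cdk inhibitor tested. The ratio of Lockd to Cdkn1b counts, which needs no scaling, was 3.00, 2.28 and 1.75 in mutant red cells and 3.64, 8.65 and 4.62 in wild-type red cells. The groups did not overlap, with means of 2.35 ± 0.626 and 5.64 ± 2.65 (exact two-sided permutation p = 0.1, n = 3 each, the smallest this design allows). Every mutant library had fewer Lockd counts per Cdkn1b count than every wild-type library, while neither gene passed the test by itself. The share of all tested genes whose ratio to Cdkn1b separates in this way was not counted, so the separation is a description only. For ratios to Gas5 that share was 26.2%, and Lockd already separated without a ratio.

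Genes listed as markers of nucleated erythroid precursors had counts in the same libraries. Summed over 6 such markers, TMM-scaled CPM were 19.8, 14.1 and 24.6 in mutant red cells and 15.2, 47.5 and 50.5 in wild-type red cells. The groups overlapped, and wild-type library 1 was among the low ones. Of the 4 tested 0 were called. The most abundant was Tfrc, the transferrin receptor, with 100, 60 and 246 counts in mutant red cells and 145, 577 and 706 in wild-type red cells. Whether Tfrc counts came from nucleated precursors or from reticulocytes was not tested. In wild-type libraries 2 and 3 the summed counts were 778 and 980, so the sum there mostly follows Tfrc. The sum is therefore not read as an amount of nucleated cells. Log2 fold changes were −1.38 for Tfrc, −0.40 for Mki67, 0.08 for Gata1 and 0.03 for Klf1. Set against single genes of this list, Lockd gave ratios in opposite directions. Lockd to Tfrc was 0.870, 1.22 and 0.463 in mutant red cells and 1.13, 0.464 and 0.307 in wild-type red cells, with means of 0.850 ± 0.377 and 0.634 ± 0.437 and overlap (exact permutation p = 0.6, n = 3 each). Without wild-type library 1 the wild-type mean was 0.386. Lockd to Mki67, a proliferation marker, was 1.04 ± 0.191 in mutant red cells and 1.33 ± 0.350 in wild-type red cells, with overlap (exact permutation p = 0.3, n = 3 each). The part of precursor transcripts in the Lockd difference was not tested.

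The RefSeq promoter of Lockd (GRCm38.p6, chr6:134928842-134929141, plus strand) is shown with each CACCC, on either strand, in capitals. CACCC is the core of the sites bound by the erythroid factor Klf1.
Lockd promoter: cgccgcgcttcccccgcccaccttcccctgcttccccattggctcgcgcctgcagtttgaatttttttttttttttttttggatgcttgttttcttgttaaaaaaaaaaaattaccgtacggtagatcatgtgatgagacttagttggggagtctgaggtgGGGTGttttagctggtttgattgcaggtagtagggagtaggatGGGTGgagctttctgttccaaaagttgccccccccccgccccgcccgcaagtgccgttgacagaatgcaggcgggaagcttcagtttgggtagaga
The 300 bases, 250 before the annotated start and 50 from it, hold 2 CACCC matches, both on the minus strand. At least 2 were found in 25.7% of 32851 mouse promoters of this length. GATAA, the core of GATA factor sites, was not found on either strand, and 25.4% of the promoters held it. The letters of CACCC and GATAA were searched as written on both strands, and the matches do not overlap.

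Neat1 and Malat1 lie 22035 bases apart on chromosome 19 (mm10), both on the minus strand, and varied together. Neat1 (Entrez gene 66961, 5824708 to 5845480) had 22, 36 and 34 counts in mutant red cells and 119, 48 and 82 in wild-type red cells. The TMM-scaled CPM were 2.01, 3.03 and 2.19 in mutant red cells, against 6.25, 2.93 and 4.22 in wild-type red cells. The groups overlapped by 1 library of each, mutant 2 and wild type 2. The log2 fold change was −0.89 (SE 0.29, 95% interval −1.50 to −0.28), with an edgeR adjusted p of 0.0757.

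With batch as a term Neat1 was called at −0.84 (edgeR adjusted p = 0.0407). DESeq2 with that term did not call it (adjusted p = 0.694). The difference within batches 1, 2 and 3 was −1.57, 0.05 and −0.91 on the log2 scale, so batch 2 showed almost none. Wild-type library 1, which stood apart, had the highest Neat1. Without it the value was −0.57 (edgeR adjusted p = 0.281), and without batch 1 −0.42 (adjusted p = 0.593). Without wild-type library 2 it was −1.10 and passed (adjusted p = 0.0293), as it did without batch 2 (−1.27, adjusted p = 0.0319).

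Malat1 (Entrez gene 72289, chromosome 19, 5795690 to 5802672) had 31, 34 and 42 counts in mutant red cells and 86, 43 and 83 in wild-type red cells. In TMM-scaled CPM the mutants lay close together, at 2.84, 2.86 and 2.71, while wild type had 4.52, 2.62 and 4.28. The lowest library of all was wild type 2, so the groups overlapped. At a log2 fold change of −0.45 (SE 0.26, 95% interval −0.99 to 0.10) Malat1 was not called (edgeR adjusted p = 0.395). It was −0.65, 0.12 and −0.63 within batches 1, 2 and 3. Without wild-type library 1 it was −0.31 (edgeR adjusted p = 0.632). Malat1 passed under none of the 19 alternatives (adjusted p 0.0625 to 1.00).

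The ratio of Malat1 to Neat1 counts was 1.41, 0.944 and 1.24 in mutant red cells and 0.723, 0.896 and 1.01 in wild-type red cells. The means were 1.20 ± 0.235 and 0.877 ± 0.146, with overlap (exact permutation p = 0.2, n = 3 each). Without wild-type library 1, which had the lowest ratio, the wild-type mean was 0.954, still with overlap. Across the 6 libraries the log2 CPM of both had a Pearson r of 0.88, or 0.77 over the 5 without wild-type library 1, a description over libraries that share genotype and scaling factors. The r of Lockd with Malat1 was 0.05 and with Neat1 0.18. Lockd was highest in wild-type library 2, where Malat1 and Neat1 were lowest among the wild-type libraries.

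Malat1 and Neat1 were set against Ptprc, the gene of the pan-leukocyte antigen CD45, and against the 7 leukocyte markers together, since leukocytes keep their nucleus. Ptprc had 121, 162 and 258 counts in mutant red cells and 276, 248 and 294 in wild-type red cells. Its log2 fold change was −0.11 (edgeR adjusted p = 0.840), and single markers went different ways. Lyz2, the lysozyme of myeloid cells, was at 0.91 (adjusted p = 0.0711, or 0.00138 with batch in the model), and Cd79a, of the B cell receptor, at −0.78 (adjusted p = 0.304). The ratio of Malat1 to Ptprc was 0.256, 0.210 and 0.163 in mutant red cells and 0.312, 0.173 and 0.282 in wild-type red cells, with means of 0.210 ± 0.0467 and 0.256 ± 0.0728 and overlap (exact permutation p = 0.4, n = 3 each). Neat1 to Ptprc averaged 0.179 ± 0.0453 in mutant red cells and 0.301 ± 0.120 in wild-type red cells, also with overlap (exact permutation p = 0.2, n = 3 each). Without wild-type library 1 the wild-type mean of this ratio was 0.236, and that of Malat1 to Ptprc 0.228. As a percentage of the summed counts of the 7 markers, Malat1 averaged 3.33 ± 0.581 in mutant and 4.49 ± 1.22 in wild-type red cells, and Neat1 2.90 ± 1.04 and 5.23 ± 1.76 (SD, n = 3 each), both with overlap. Without wild-type library 1 the wild-type means were 4.22 for Malat1 and 4.36 for Neat1. How much of Malat1 and Neat1 came from such cells was not tested.

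**Figure D2:**
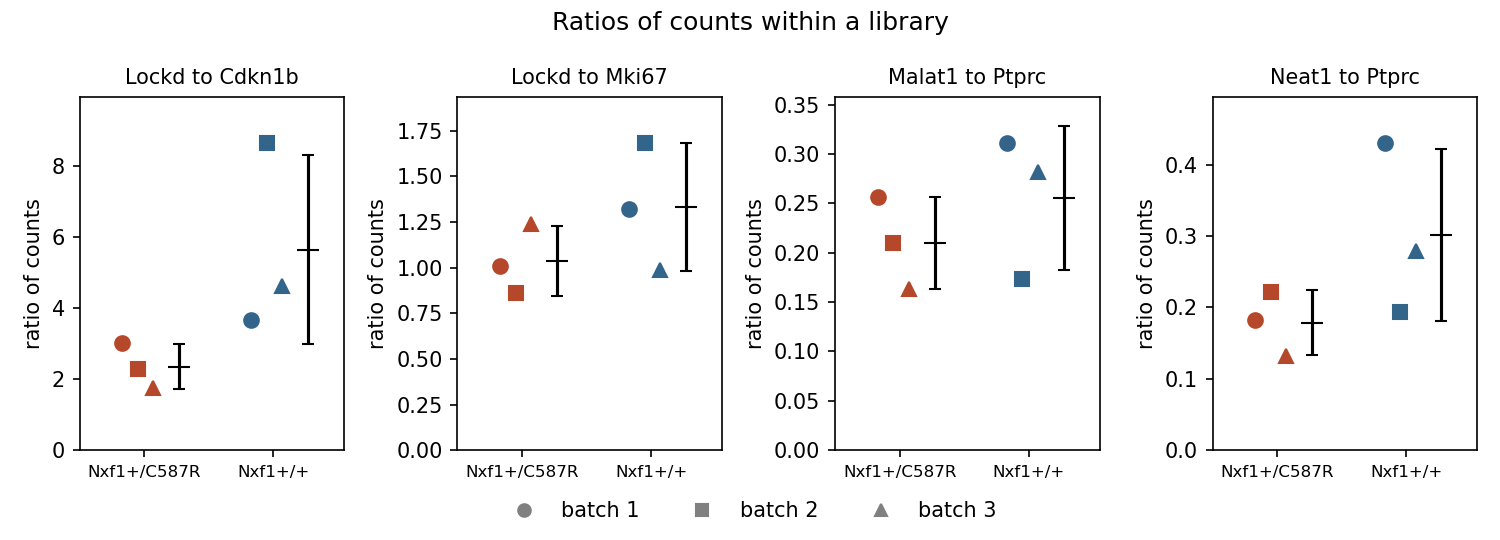
Ratios of raw counts within a library for Lockd to Cdkn1b, Lockd to Mki67, Malat1 to Ptprc and Neat1 to Ptprc, with each point 1 library, mutant left and wild type right, the batch given by the symbol, and black bars the mean with SD (n = 3). The ratio of Lockd to Cdkn1b is at most 3.00 in mutant red cells and at least 3.64 in wild-type red cells. The share of tested genes whose ratio to Cdkn1b separates in this way was not counted, and Lockd separated without a ratio. The ratios of Lockd to Mki67, Malat1 to Ptprc and Neat1 to Ptprc overlap between genotypes.

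Counts of Gas5 lay in the same range in both genotypes. Gas5 (Entrez gene 14455, chromosome 1, 161034601 to 161038539, plus strand) had 23, 20 and 17 counts in mutant red cells and 19, 17 and 23 in wild-type red cells. In TMM-scaled CPM the mutants had 2.11, 1.68 and 1.10, against 0.998, 1.04 and 1.19 in wild-type red cells. Mutant library 3 lay within the wild-type range, and mutant libraries 1 and 2 lay above it. The log2 fold change was 0.57 (SE 0.32, 95% interval −0.10 to 1.24) and did not pass (edgeR adjusted p = 0.377). As a share of all counts, Gas5 was at 1.33 ± 0.178 CPM without scaling factors in mutant red cells and 1.28 ± 0.157 in wild-type red cells (exact permutation p = 0.7, n = 3 each). Gas5 was counted over 2554 bases, and the opposite strand carries Zbtb37, which overlaps its span. Reads from either strand cannot be told apart in the overlap without a strand setting, and Zbtb37 itself had at most 5 counts per library.

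Snhg1 (Entrez gene 83673, chromosome 19, 8723487 to 8726326, plus strand) had 10, 10 and 5 counts in mutant red cells and 12, 17 and 9 in wild-type red cells. The TMM-scaled CPM were 0.916, 0.841 and 0.323 in mutant red cells and 0.630, 1.04 and 0.464 in wild-type red cells, fully interleaved. The log2 fold change of −0.07 (SE 0.46, edgeR adjusted p = 0.958) had a 95% interval from −1.04 to 0.89. Changes within this interval were not excluded by these counts. Snhg12 (Entrez gene 100039864, chromosome 4, 132308678 to 132311024, plus strand) had 1, 0 and 0 counts in mutant red cells and 2, 1 and 1 in wild-type red cells. The ratio of TMM-scaled counts was 0.358 with an exact 95% counting interval from 0.00727 to 3.62. A count of 0 allowed up to 0.252 and 0.194 TMM-scaled CPM in mutant libraries 2 and 3.

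Few of the snoRNAs inside these hosts were counted as genes of their own. Snord22 in Snhg1 had 4 counts over all libraries, Snord47 in Gas5 had 1, and the 4 snoRNAs in Snhg12 had 1 together. Mature snoRNAs have no poly(A) tail, so libraries of polyadenylated RNA do not measure their amount.

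Starts of the 3 hosts are shown because genes of the translation machinery and snoRNA hosts share a terminal oligopyrimidine start. The RefSeq sequences (GRCm38.p6, plus strand) run from 40 bases before the annotated start to 40 from it, with the unbroken run of C and T over the start in capitals.
Gas5 (chr1:161035126-161035205): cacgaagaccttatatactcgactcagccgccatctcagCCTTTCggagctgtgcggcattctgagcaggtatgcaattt
Snhg1 (chr19:8723447-8723526): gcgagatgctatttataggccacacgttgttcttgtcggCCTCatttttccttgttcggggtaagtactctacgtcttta
Snhg12 (chr4:132308638-132308717): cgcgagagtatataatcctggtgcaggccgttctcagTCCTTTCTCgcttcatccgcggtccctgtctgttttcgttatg
The run is 6, 4 and 9 bases long in Gas5, Snhg1 and Snhg12. A run of at least 4 bases over the start was found in 14.0% of 32851 promoters. Lockd has a G at its annotated start and Malat1 a run of 2. Gas5 has a further annotated start, at 161034601, which also has a G. Neat1 was not in the promoter table used.

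**Figure D3:**
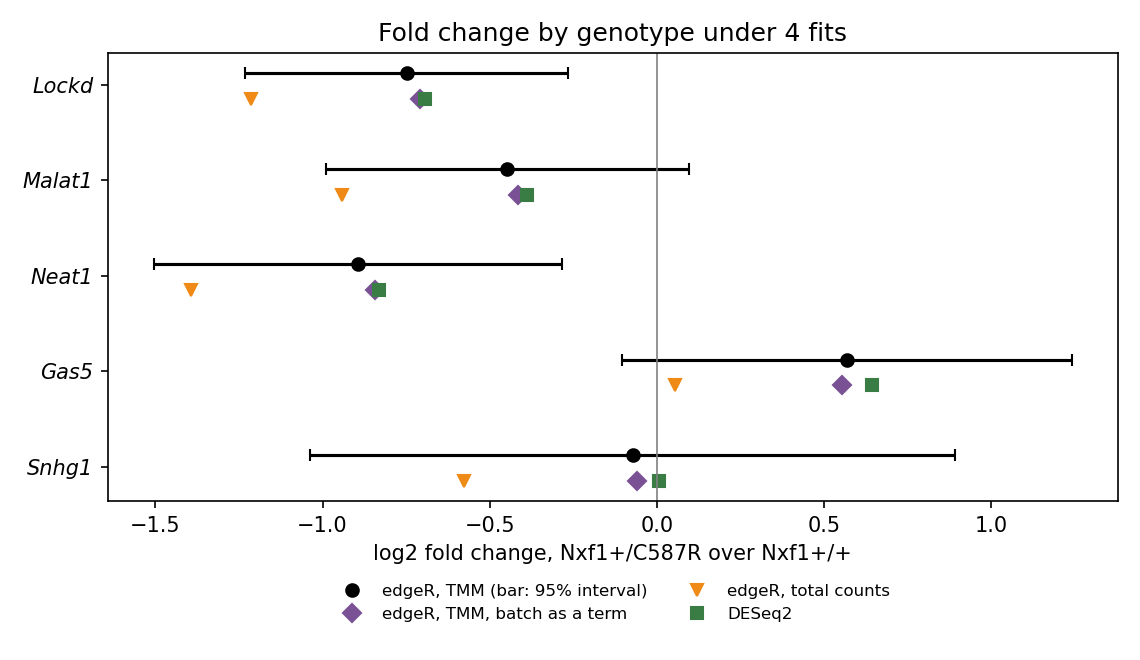
Log2 fold change, mutant over wild type, of the 5 transcripts tested, with the edgeR value and its 95% interval in black, and below it the values with batch as a term, with total counts and with DESeq2. The intervals of Lockd and Neat1 lie below 0, that of Gas5 reaches from −0.10 to 1.24, and all 5 values are lower with total counts.

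Fold changes rested on the scaling. The mutant libraries had TMM factors of 0.720, 0.780 and 1.06, against 1.23, 1.11 and 1.23 for wild type. With total counts the median of all genes was −0.53 in place of −0.06, and 12.8% of genes were called, 8.68% lower and 4.07% higher. Lockd (−1.22, edgeR adjusted p = 0.00537) and Neat1 (−1.39, adjusted p = 0.0173) then passed and Malat1 did not (−0.94, adjusted p = 0.0625). Gas5 was at 0.05 (adjusted p = 0.906) and Snhg1 at −0.58 (adjusted p = 0.355). As shares of all counts, Lockd, Malat1 and Neat1 did not overlap between genotypes, with mutant over wild-type ratios of 0.430, 0.520 and 0.380 (exact permutation p = 0.1 for each, n = 3 each). Without wild-type library 1 these ratios were 0.382, 0.582 and 0.484. The same separation was found for 31.5% of tested genes in this direction and 5.31% in the other.

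Ratios between the transcripts are free of scaling. Lockd to Gas5 was 3.78, 3.65 and 6.71 in mutant red cells, against 8.63, 15.8 and 9.43 in wild-type red cells. Malat1 to Gas5 was 1.35, 1.70 and 2.47 in mutant red cells, against 4.53, 2.53 and 3.61 in wild-type red cells. Its wild-type mean was 3.55, or 3.07 without wild-type library 1. Neat1 to Gas5 averaged 1.59 ± 0.554 in mutant red cells and 4.22 ± 1.81 in wild-type red cells, or 3.19 without wild-type library 1. These 3 ratios share Gas5 as denominator and did not overlap between genotypes, each with an exact permutation p of 0.1 (n = 3 each), the smallest this design allows. Of the other tested genes 26.2% had a ratio to Gas5 that was lower in mutant red cells without overlap. Lockd to Malat1 overlapped, with means of 2.56 ± 0.357 in mutant and 3.58 ± 2.32 in wild-type red cells (exact permutation p = 0.9, n = 3 each). Without wild-type library 1, which had the lowest ratio, the wild-type mean was 4.42, also with overlap. Gas5 counts were small, 17 to 23 per library, and counting error bears on each ratio.

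**Figure D4:**
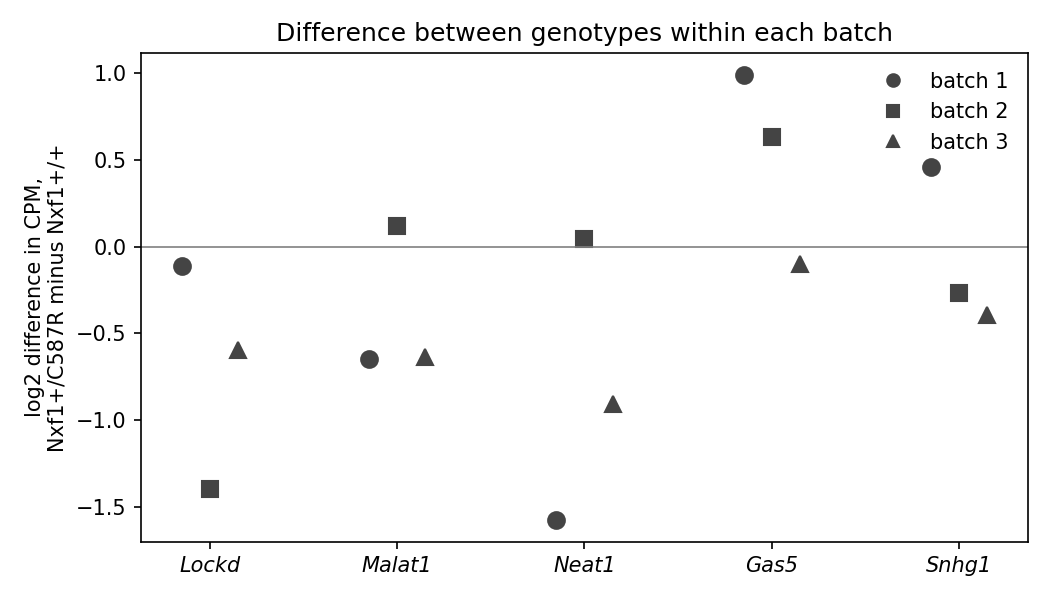
Difference between the mutant and the wild-type library of the same batch in log2 TMM-scaled CPM (prior count of 2) for the 5 transcripts tested, with each symbol 1 batch. Lockd is below 0 in all 3 batches, as it would be under any pairing of the libraries. Malat1 and Neat1 are below 0 in batches 1 and 3 and near 0 in batch 2.

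Of the 6 transcripts, 3 are encoded on chromosome 19, as is Nxf1 itself (8757103 to 8770910). Snhg1 ends 30776 bases before Nxf1, and Neat1 and Malat1 lie 2.91 and 2.95 Mb from it. Slc3a2, an amino acid transporter chain that starts 117 bases from Snhg1 on the opposite strand, had 72, 72 and 92 counts in mutant red cells and 89, 99 and 132 in wild-type red cells. Its log2 fold change was 0.08 (SE 0.21, edgeR adjusted p = 0.891). Nxf1 had a log2 fold change of −0.21 (SE 0.38, edgeR adjusted p = 0.850) on 7 to 11 counts per mutant library and 10 to 20 per wild-type library. Of 8 genes tested within 1 Mb of Nxf1 edgeR called 0, and their median was −0.44 on the log2 scale. Within 10 Mb, a stretch that holds Malat1, Neat1 and Snhg1, 1 of 69 was called, or 1.45% against 7.05% over all genes.

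Related noncoding RNAs were sparse in these libraries. The 18 other snoRNA-host noncoding RNAs had 3, 11 and 17 counts in mutant red cells and 37, 30 and 27 in wild-type red cells, and 0 of them passed the filter on low counts. Snhg8 had 0, 1 and 2 counts in mutant red cells against 4, 10 and 17 in wild-type red cells, and Snhg5 had 0, 1 and 0 against 4, 3 and 3. Zfas1, a further host, had 1, 4 and 11 counts in mutant red cells and 5, 11 and 4 in wild-type red cells. In TMM-scaled CPM the summed list was at 0.275, 0.925 and 1.10 in mutant red cells and 1.94, 1.83 and 1.39 in wild-type red cells, without overlap. Of the 37 counts in wild-type library 1, 12 were of Snhg11, which had 0 in the other wild-type libraries. Without that library the wild-type sums were 1.83 and 1.39 CPM, still above every mutant. Snhg8 alone made up 17 of the 27 counts in wild-type library 3, 10 of 30 in library 2 and 4 of 37 in library 1. The sum without Snhg8 was not taken, so the separation is not read as a trait of the whole list. Among single tested genes, 11.1% had TMM-scaled CPM that were lower in mutant red cells without overlap.

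A list of other noncoding RNAs was drawn up as nuclear or chromatin-bound. It also holds Norad, which acts in the cytoplasm, and Oip5os1, so it is not read as nuclear RNAs alone. Of its 19 RNAs found in the files, 2 were tested and 0 were called, 1 of them with an unadjusted p under 0.05. Oip5os1, also known as Cyrano, which directs decay of a microRNA, was at 50.2 ± 5.81 TMM-scaled CPM in mutant red cells and 48.8 ± 6.01 in wild-type red cells (SD, n = 3 each). Its log2 fold change was 0.04 (edgeR adjusted p = 0.934). Tug1 had 0.99 (SE 0.33, edgeR adjusted p = 0.0871) on 19, 15 and 32 counts in mutant red cells and 12, 14 and 21 in wild-type red cells. Among all 28 long noncoding RNAs tested, edgeR called 0 higher and 4 lower, with 9 at an unadjusted p under 0.05 and a median log2 fold change of −0.24. The 4 lower are 14.3% of the 28, against 1.06% of all genes, and the unadjusted share over all genes was 18.5%. DESeq2 called 0 higher and 2 lower, and edgeR with batch as a term 0 higher and 6 lower. The 4, chosen after their values were seen, were AI662270 (−1.30), A930006K02Rik (−1.81), AW011738 (−1.30) and 1500011B03Rik (−1.11), with edgeR adjusted p from 9.88e-05 to 0.0446. None of the 6 transcripts is among them. AI662270 is also the gene called in a list of erythroid and microRNA-host noncoding RNAs, where 3 were tested.

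Genes that act with these RNAs were examined by list. Over all genes tested, edgeR called 7.05%, and 18.5% had an unadjusted p under 0.05. The lists are too short to tell their shares from these. Of 10 paraspeckle and speckle proteins tested, edgeR and DESeq2 called 0, 1 had an unadjusted p under 0.05, and they had a median log2 fold change of −0.18. Those with the smallest p were Srrm2, a core protein of speckles (−0.69, edgeR adjusted p = 0.112), and Srsf3, a splicing factor (−0.73, adjusted p = 0.273). Of 9 snoRNP proteins only Dkc1, the pseudouridine synthase, was tested (0.55, adjusted p = 0.406). Of 5 nonsense-mediated decay factors tested 0 were called by either tool and 1 had an unadjusted p under 0.05, Upf3b (0.64, adjusted p = 0.264). Of 12 protein-coding snoRNA hosts tested, 1 was higher and 0 lower, with a median of 0.09. That gene was Tpt1, the gene of the translationally controlled tumor protein, at 65.2 ± 5.63 CPM in mutant red cells and 41.5 ± 2.92 in wild-type red cells (log2 fold change 0.65, SE 0.16, edgeR adjusted p = 0.0124).

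The genes whose log2 TMM-scaled CPM followed each transcript most closely over the 6 libraries were found among 460 tested genes with a symbol and a mean of at least 5 CPM. For Lockd they were Serinc3 (Pearson r 0.99), Marchf5 (0.98) and Cd24a (0.94). For Malat1 they were Eef1a1 (0.97), Jund (0.93) and Azin1 (0.87), and for Neat1 Ddx5 (0.93), Jund (0.89) and Eef1a1 (0.86), so Jund and Eef1a1 stood in both. For Gas5 they were Rab43 and Cadps2 (0.99 each) and Itsn1 (0.99). For Snhg1 they included Hemgn (0.94) and Bpgm (0.91). These are descriptions over 6 libraries that share genotype and scaling factors.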

How the data were processed

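RNA was measured in 6 libraries from separate male mice, 3 of either genotype, grouped by the genotype label. The deposited values are raw counts per gene, 1 file per library, with a gene length in bases, per the file headers. Per the submitters' processing notes, CASAVA 1.8.2, Subread and featureCounts were used with genome build mm10. For the annotation, the strand setting and the versions of the other tools: not given in the sources used here. Of 27179 genes, 25275 had a symbol in the RefSeq table of GRCm38.p6, the same assembly as mm10, and 18 more in GENCODE M21.

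The comparison used edgeR 4.0.16 (quasi-likelihood test, robust, TMM, filterByExpr) in R 4.3.3 on all genes, with p-values adjusted by Benjamini-Hochberg and genotype alone in the model. An SE is the absolute log2 fold change over the root of its F statistic. Within-batch differences used a prior count of 2. Printed CPM use total counts multiplied by TMM factors. The script was tested on simulated data. Single values were tested by two-sided exact permutation (SciPy 1.17.1). Intervals and floors (3 counts for a count of 0) cover counting error only, since reads had no molecular identifiers.

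Alternatives were RLE scaling, total counts, globin genes removed, DESeq2 1.42.0, limma-voom (limma 3.58.1), no low-count filter or one at a mean of 50, batch as a term, and leaving out each library or batch. A fit without genes of 3 or fewer counts in a genotype was added after seeing the data, as were share ratios without each library, count ratios without wild-type library 1 and ratios to the 7 leukocyte markers. The batch labels pair 1 mutant with 1 wild-type library each, and their deviations from group means correlated at −0.116, −0.0855 and −0.0439 across genes.

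The 6 transcripts and the 15 other gene lists were chosen with earlier results of these data known. Named beside the 6 are, per list, the most abundant gene and the 2 with the smallest p, the 3 most alike in pattern, and neighbouring genes. The remaining named genes were chosen after their values were seen. Some genes that this rule would name are not reported here.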

Additional observations from a re-analysis of the deposited data

How the results depend on the processing

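Calls over all genes, 169 higher and 30 lower, moved by over 1.5 times under several settings. Lower calls numbered 19 with RLE scaling, 245 with total counts, 11 with DESeq2, 60 with batch as a term (replicate block), 3 with DESeq2 and that term, 19 without batch 2 and 3 without batch 3. Without a filter 382 were higher and 82 lower, with a mean count of at least 50 the numbers were 66 and 49, and without genes of 3 or fewer counts in a genotype 81 and 19. Leaving out 1 library gave 8 to 77 lower and 137 to 244 higher.

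Lockd kept its negative sign in all 19 alternatives and was called in 5. These were total counts (−1.22), a mean count of at least 50 (−0.87), batch as a term (−0.71), without batch 1 (−0.97) and without wild-type library 1 (−0.94, in a range of −0.94 to −0.45 over single libraries left out). Neat1 kept its sign in all 19 and was called in 4, which were total counts (−1.39), batch as a term (−0.84), without batch 2 (−1.27) and without wild-type library 2 (−1.10, in a range of −1.10 to −0.57). Malat1 and Gas5 kept their sign and were called in none. With single libraries left out Malat1 ran from −0.63 to −0.31, and Gas5 from 0.42 to 0.89, the highest without mutant library 3. Gas5 and Snhg1 had too few counts for the mean count of at least 50, and Snhg1 also without batch 1. Snhg1 turned positive with DESeq2 (0.0066), without batch 2 (0.12) and without batch 3 (0.17), and ran from −0.30 to 0.40 with single libraries left out. The Gas5 share ratio of 1.04 ran from 0.967 to 1.12 in the same way. The cause was not tested. Batch as a term changed no other call of the 5. Counts of 5 to 42 per mutant library limit what could be seen for Gas5, Snhg1, Malat1 and Neat1.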

Other observations

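Wild-type library 1 held nuclear noncoding RNAs that the other libraries almost lacked. Meg3, a noncoding RNA of an imprinted cluster, had 1, 0 and 0 counts in mutant libraries and 96, 0 and 0 in wild-type libraries. Rian, transcribed from the same cluster, had 0 counts in all mutant libraries and 45, 0 and 0 in wild-type libraries. Firre, an X-linked nuclear RNA, had 1, 1 and 0 counts in mutant libraries and 26, 1 and 1 in wild-type libraries. Xist had 1, 0 and 0 counts in mutant libraries and 30, 1 and 0 in wild-type libraries. None of these 4 passed the filter on low counts. The same library had the highest Neat1 (119 counts) and Malat1 (86 counts), while its Lockd (164 counts) was the lowest of the wild-type libraries. Norad, a noncoding RNA that acts in the cytoplasm, had 2, 6 and 7 counts in mutant red cells and 17, 7 and 11 in wild-type red cells, again with the highest count in wild-type library 1. The part of other cells in these counts was not tested.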
